A study of Mus musculus with 4 samples.

Results

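The genes examined here encode voltage-gated sodium and calcium channels, pacemaker channels and TRP channels, measured in infarcted mouse hearts with and without a fibroblast reprogramming transgene. They were chosen by gene symbol (Scn followed by a number and a or b, Cacna, Cacnb, Cacng, Cacna2d, Hcn, Trpc, Trpm and Trpv), and 59 of the 19505 symbols with a named probe matched, each through 1 probe. Trpc4ap, an adaptor protein gene, and Trpc5os, a transcript opposite Trpc5, matched by spelling only, which left 57 channel genes.

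Whole hearts of 4 male mice were hybridised to Clariom S arrays 3 months after ligation of the left coronary artery, which was performed at 8 weeks of age. The TTg-MI group (2 hearts) had the genotype Tcf21iCre/Tomato/MGTH2A and the Ctrl-MI group (2 hearts) had Tcf21iCre/Tomato. Both groups therefore carried the Cre under Tcf21, a gene of cardiac fibroblasts, together with the Tomato reporter, and differed in MGTH2A, known as a construct for Mef2c, Gata4, Tbx5 and Hand2. All 4 hearts had been infarcted, mice whose ejection fraction remained high early after surgery had been removed, and the labels name no agent that switches the Cre on. The series' design text calls the 2 hearts of a group independent. The RNA came from the whole organ, so a lower value can mean fewer cells of a type or less RNA per cell, and these cannot be told apart.

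Each heartbeat starts in the sinoatrial node, where HCN channels open on hyperpolarisation and let cations in until the cell fires. Voltage-gated sodium channels then carry the rapid upstroke in atrial and ventricular muscle, and L-type calcium channels admit the calcium that triggers release from the sarcoplasmic reticulum. A calcium channel is built from an alpha1 pore with beta and alpha2delta partners, and a sodium channel from an alpha pore with beta subunits. TRP channels are cation channels opened by lipids, calcium, stretch or temperature. In the heart they are found in muscle, vessels, fibroblasts and immune cells.

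Of the transcripts with the clearest differences, Scn7a was lower in TTg-MI hearts, and Trpm4, Cacna1s and Hcn4 were higher. These differences were larger than the gaps between replicate hearts, yet none passed limma after Benjamini-Hochberg adjustment over all 22206 probes, where 1 probe passed (0.0045%), that of Bmp10, a growth factor gene of atrial muscle. At an unadjusted p under 0.05, limma gave 5 of the 59 genes, 3 higher and 2 lower. The same criterion held for 8.25% of all probes (3.18% higher and 5.07% lower), so the share among the channel genes was near the background. With each array left out, the count of channel genes moved in the same direction as that over all probes. The median log2 difference, TTg-MI minus Ctrl-MI, was 0.06 over the 59 genes and 0.01 over all probes. The TTg-MI mean was the higher one for 38 of the 59 (52.3% of all probes) and the lower one for 21 (47.7% of all probes). Without overlap of the groups, 15 of the 59 were higher in TTg-MI (19.4% of all probes) and 7 were lower (18.7% of all probes), while 37 overlapped.

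**Figure D1:**
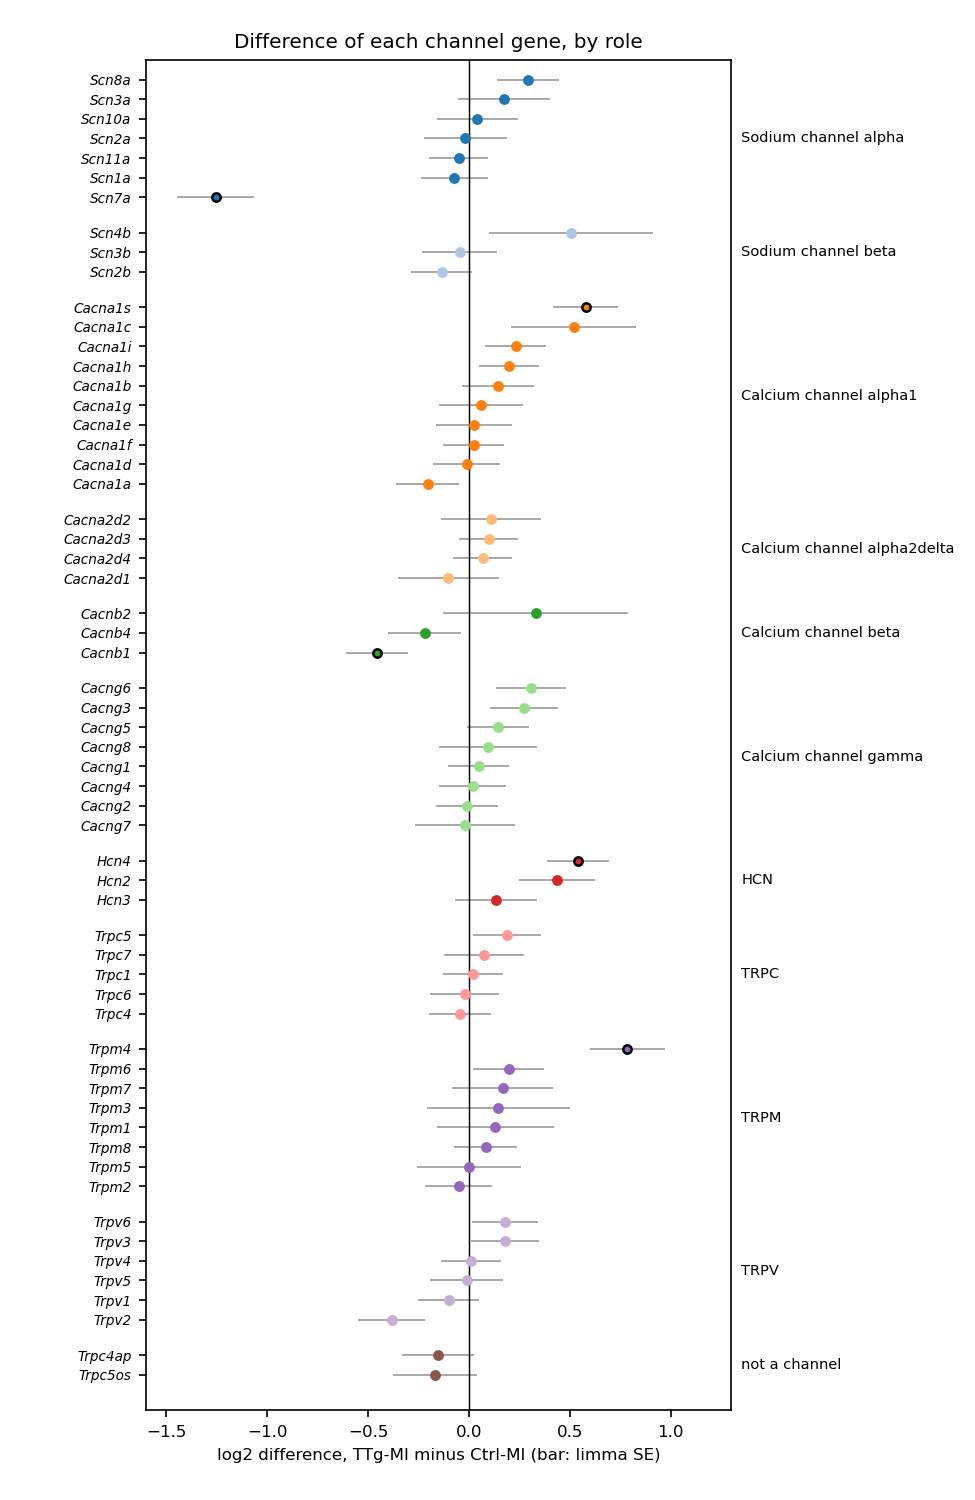
Log2 difference (TTg-MI minus Ctrl-MI, horizontal axis, bars are the limma SE) of each of the 59 genes, grouped by role down the page. A black ring marks an unadjusted limma p under 0.05. Scn7a lies apart at the low end with -1.25, and the others lie between -0.46 and 0.78.

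Many of the genes gave little signal. A value is called dim where it lies under the lower quartile of its array (5.48 and 5.47 log2 units in TTg-MI, 5.48 and 5.41 in Ctrl-MI). Of the 59 genes, 13 were dim on all 4 arrays, 36 on none and 10 on some. Over all 22206 probes the counts were 4391, 15494 and 2321, so dim values were not particular to the channel genes. The dim ones included the sensory neuron channels Scn10a and Scn11a, the neuronal Scn1a, the retinal calcium channel Cacna1f, the cold receptor Trpm8 and 3 of the 5 TRPC genes. The 5 genes with an unadjusted p under 0.05 were above the lower quartile on every array.

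**Figure D2:**
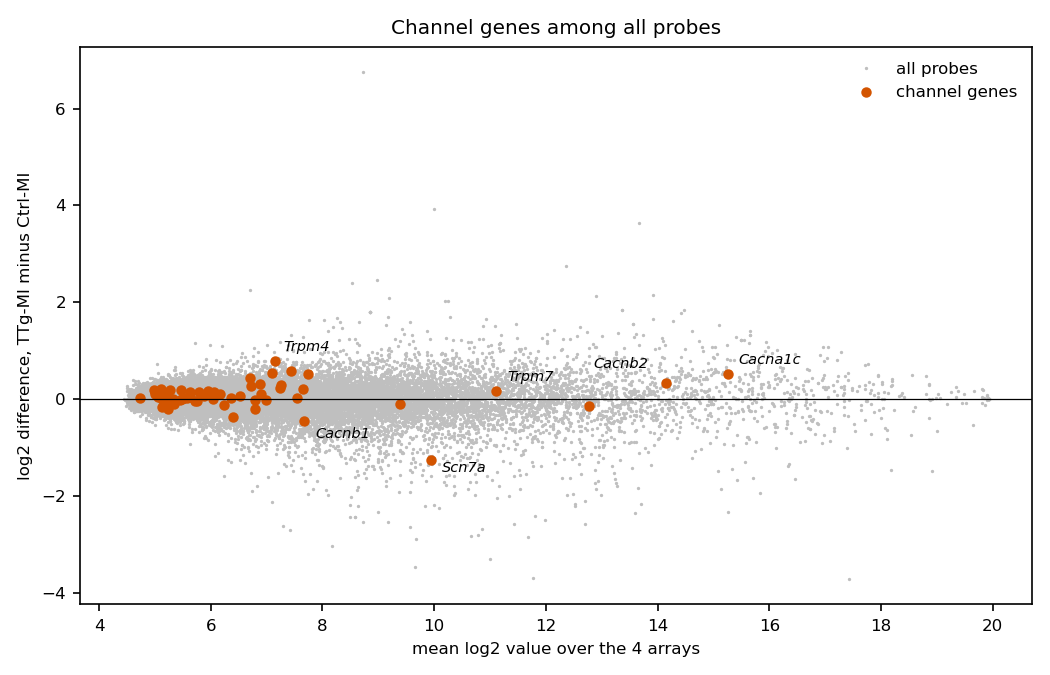
Log2 difference (TTg-MI minus Ctrl-MI, vertical axis) against the mean log2 value over the 4 arrays (horizontal axis) for all 22206 probes in grey and the 59 channel genes in orange. The channel genes lie within the spread of probes of like mean value.

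The windows around the transcription start are shown for Scn7a, Hcn4 and Cacna1s, since the transgene encodes DNA-binding factors. Trpm4, which led these differences with them, had no entry in the RefSeq promoter table used. Of the 59 genes 49 matched, with 63 windows of 300 bases (250 before and 50 after the start, GRCm38.p6). The windows printed 5′ to 3′ are Scn7a at chr2:66784861-66785160 on the minus strand, Hcn4 at chr9:58822699-58822998 on the plus strand and Cacna1s at chr1:136052561-136052860 on the plus strand. Capitals mark matches on either strand to AGATAA (bound by factors such as Gata4), AGGTGT (bound by T-box factors), CANNTG (E-box, for Hand2 and other basic helix-loop-helix factors) and the Mef2 motif (CTA, any 4 bases, then TAG).
Scn7a: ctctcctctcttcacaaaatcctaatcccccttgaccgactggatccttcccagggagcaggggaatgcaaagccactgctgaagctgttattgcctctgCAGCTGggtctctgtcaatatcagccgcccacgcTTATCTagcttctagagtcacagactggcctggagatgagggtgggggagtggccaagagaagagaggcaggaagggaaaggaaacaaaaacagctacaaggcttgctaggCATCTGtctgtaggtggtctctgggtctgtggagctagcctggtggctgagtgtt
Hcn4: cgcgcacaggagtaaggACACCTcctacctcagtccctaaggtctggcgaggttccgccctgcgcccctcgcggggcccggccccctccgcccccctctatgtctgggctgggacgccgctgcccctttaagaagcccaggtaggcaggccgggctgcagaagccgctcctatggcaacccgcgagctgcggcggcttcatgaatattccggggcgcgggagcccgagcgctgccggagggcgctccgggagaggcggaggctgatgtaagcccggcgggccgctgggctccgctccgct
Cacna1s: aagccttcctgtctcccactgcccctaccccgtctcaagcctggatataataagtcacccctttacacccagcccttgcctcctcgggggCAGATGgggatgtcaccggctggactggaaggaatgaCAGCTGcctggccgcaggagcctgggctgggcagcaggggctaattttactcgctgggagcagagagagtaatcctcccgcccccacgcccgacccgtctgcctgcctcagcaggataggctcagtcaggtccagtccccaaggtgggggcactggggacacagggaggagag
In the Scn7a window the letters for GATA stood at -116, and E-boxes stood at -150 and -5, counted from the start. The Hcn4 window held 1 T-box match at -233 and no E-box, and the Cacna1s window held E-boxes at -160 and -123. No matches overlapped in these windows. Cacnb1, the other gene with an unadjusted limma p under 0.05, had 2 windows that are not printed. Of these, 1 held an E-box at -27 and the other held no match. Of all 32851 windows in the table, 11.2% held the GATA letters, 13.7% the T-box letters, 72.3% an E-box and 3.69% the Mef2 letters. Among the 63 windows of the channel genes these shares were 4.76%, 14.3%, 74.6% and 0%. A match is a stretch of letters and not a measured binding site.

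Among the sodium channel pores, Scn7a stood out. It encodes Nax, an unusual member of the family that senses extracellular sodium and is found in non-neuronal cells such as glia. Its log2 values were 9.46 and 9.17 in TTg-MI hearts, against 10.71 and 10.42 in Ctrl-MI hearts. Both TTg-MI hearts lay more than 0.9 log2 units below the lower Ctrl-MI heart, while the replicates of each group differed by 0.29. The difference was -1.25 (SE 0.19, 95% interval -1.73 to -0.78), which is 2.39-fold lower in TTg-MI, with an adjusted p of 0.530 in limma. With single arrays left out it ran from -1.40 to -1.11, and its unadjusted p stayed under 0.05 in all 4 fits.

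Scn7a moved with markers of fibroblasts. The 7 measured fibroblast markers were Tcf21, Gsn, Dpt, Postn, Lum, Col1a1 and Dcn. All 7 lay lower on both TTg-MI arrays than on both Ctrl-MI arrays (18.7% of all probes). Their median difference was -1.02, and with single arrays left out it ran from -1.37 to -0.62. Their summed level was 18.45 to 18.95 log2 units in TTg-MI and 19.23 to 19.85 in Ctrl-MI, and none of them was dim on all 4 arrays. The 5 measured macrophage markers were likewise lower on both TTg-MI arrays (18.7% of all probes), with a median difference of -1.40. With single arrays left out this median ran from -2.15 to -0.61. The sums of these markers were 11.90 to 13.04 in TTg-MI and 13.63 to 14.94 in Ctrl-MI. The 4 measured Schwann cell markers overlapped between the groups, with sums of 7.24 to 7.45 in TTg-MI and 7.39 to 7.56 in Ctrl-MI, and Gfra3 and S100b were dim on all 4 arrays. The part of these cells in the Scn7a difference was not tested.

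**Figure D3:**
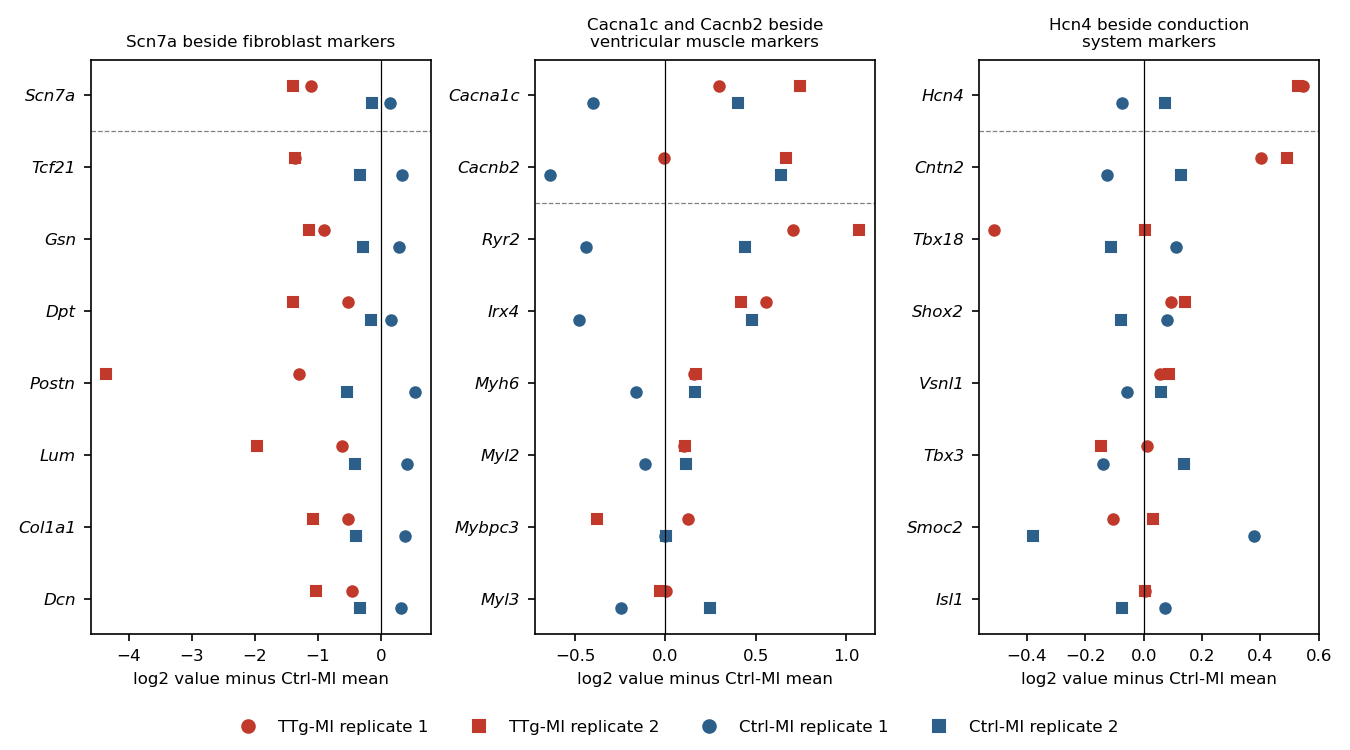
Log2 values minus the Ctrl-MI mean of each gene (horizontal axis, scales differ between panels) on every array, for channel genes above the dashed line and marker genes below it. Scn7a and the 7 fibroblast markers are lower on both TTg-MI arrays; Cacna1c and Cacnb2 are lowest on Ctrl-MI replicate 1; Hcn4 is higher on both TTg-MI arrays, while 4 of the 7 conduction system markers have a higher TTg-MI mean and their median difference is 0.00.

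The other sodium channel pores did not share the Scn7a difference. Scn1a, Scn2a and Scn3a, neuronal channels encoded on the same chromosome 2, differed by -0.07 (SE 0.17), -0.02 (SE 0.21) and 0.17 (SE 0.23), and the arrays of the groups overlapped for each. Scn8a, a channel of nodes of Ranvier that is also present in heart muscle, was 7.39 and 7.43 in TTg-MI, against 7.19 and 7.04 in Ctrl-MI. Both TTg-MI values lay higher, but the difference of 0.29 (SE 0.15) had an adjusted p of 0.693 in limma.

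Of the beta subunits, which set the trafficking and gating of the pore, Scn4b varied most between replicates. It measured 7.37 and 8.63 in TTg-MI, against 7.44 and 7.55 in Ctrl-MI. Only TTg-MI replicate 2 was high, so the difference of 0.51 (SE 0.41, adjusted p = 0.818 in limma) became -0.13 when that heart was left out and 1.14 when TTg-MI replicate 1 was. Scn2b and Scn3b differed by -0.13 (SE 0.15) and -0.05 (SE 0.19).

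The cardiac L-type calcium channel showed no separation of the groups. Cacna1c, its alpha1 pore, was 15.29 and 15.74 in TTg-MI, against 14.60 and 15.39 in Ctrl-MI. Cacnb2, the beta subunit that accompanies it in heart muscle, was 13.98 and 14.65 in TTg-MI, against 13.35 and 14.62 in Ctrl-MI. For both genes Ctrl-MI replicate 1 was the lowest of the 4 hearts, while Ctrl-MI replicate 2 lay above TTg-MI replicate 1.

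The Cacna1c difference was 0.52 (SE 0.31, 95% interval -0.26 to 1.29, adjusted p = 0.736 in limma) and that of Cacnb2 0.33 (SE 0.46, 95% interval -0.81 to 1.47, adjusted p = 0.911). When Ctrl-MI replicate 1 was left out they were 0.12 and -0.31, and when the other Ctrl-MI heart was, 0.92 and 0.97. Leaving out TTg-MI replicate 1 gave 0.74 and 0.67, and leaving out TTg-MI replicate 2 gave 0.29 and -0.01. Ventricular muscle markers had a summed level of 20.84 to 20.87 in TTg-MI and 20.59 to 20.88 in Ctrl-MI, with Ctrl-MI replicate 1 again the lowest, and 4 of the 6 had a higher TTg-MI mean. The sum was set largely by Myl2 and by Myh6, the alpha myosin heavy chain of mouse heart muscle. Myh6 was within 1 log2 unit of the top of every array, and Myl2 on 3 of the 4. Ryr2 was 16.24 and 16.60 in TTg-MI, against 15.09 and 15.97 in Ctrl-MI. It was higher in both TTg-MI hearts by 0.89 (SE 0.32), and by 0.45 without Ctrl-MI replicate 1. The groups overlapped for the other 5 ventricular markers. The part of muscle content in the channel values was not tested.

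Cacna2d1, the alpha2delta partner of the cardiac channel, was 9.42 and 9.25 in TTg-MI, against 9.11 and 9.76 in Ctrl-MI. The Ctrl-MI hearts enclosed both TTg-MI hearts, and the difference of -0.10 (SE 0.25) turned to 0.22 when Ctrl-MI replicate 2 was left out and stood at -0.43 when its partner was. The other 3 alpha2delta genes differed by 0.07 to 0.11.

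**Figure D4:**
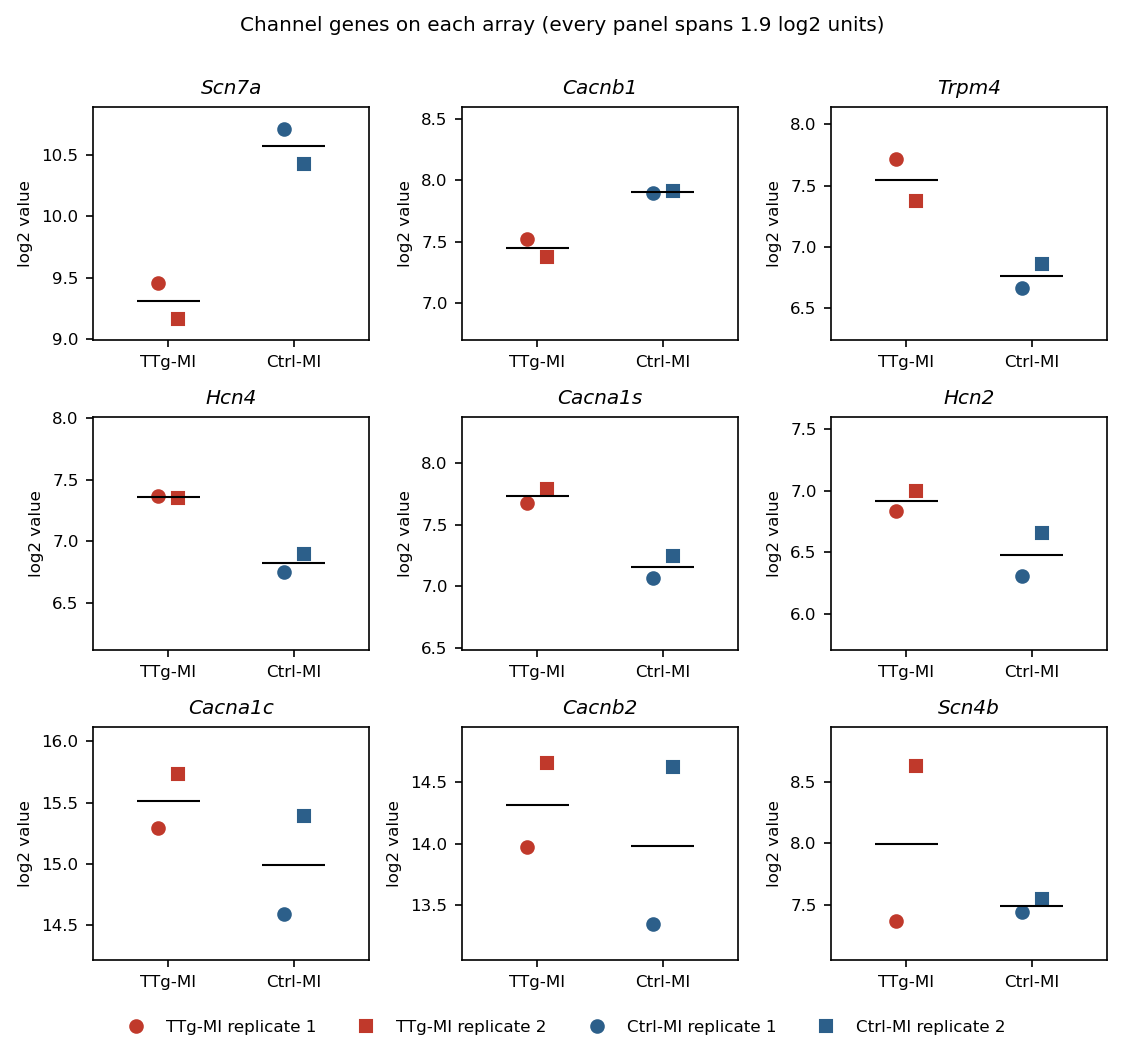
Log2 values of 9 channel genes on each array (vertical axis, every panel spans 1.9 log2 units), with TTg-MI to the left of Ctrl-MI and a bar at each group's mean. The groups are apart for Scn7a, Cacnb1, Trpm4, Hcn4, Cacna1s and Hcn2 and overlap for Cacna1c, Cacnb2 and Scn4b.

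Of the calcium channel genes known from skeletal muscle, Cacna1s and Cacnb1 differed in opposite directions. Another, Cacng1, differed by 0.05 (SE 0.15), and the groups overlapped. Cacna1s, the skeletal alpha1 pore that serves as voltage sensor for excitation-contraction coupling, was 7.68 and 7.79 in TTg-MI, against 7.06 and 7.25 in Ctrl-MI. Both TTg-MI hearts were higher, by 0.58 on average (SE 0.16, 95% interval 0.18 to 0.98, 1.49-fold, adjusted p = 0.546 in limma). Cacnb1, the beta subunit of the skeletal channel, was 7.52 and 7.38 in TTg-MI, against 7.90 and 7.91 in Ctrl-MI. Both TTg-MI hearts were lower, by -0.46 (SE 0.15, 95% interval -0.84 to -0.08, adjusted p = 0.572). With single arrays left out, Cacna1s differed by 0.49 to 0.67 and Cacnb1 by -0.53 to -0.39, and the unadjusted p of Cacnb1 was not under 0.05 in any of the 4 fits.

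Of the 8 gamma subunit genes, Cacng6, a calcium channel gamma subunit of striated muscle, was 7.19 and 6.89 in TTg-MI, against 6.77 and 6.69 in Ctrl-MI. Cacng3, whose product is an auxiliary subunit of AMPA receptors, was 6.87 and 6.84 in TTg-MI, against 6.72 and 6.44 in Ctrl-MI. The groups did not overlap for either gene, with differences of 0.31 (SE 0.17) and 0.27 (SE 0.17) that missed the adjusted threshold. Without TTg-MI replicate 1 Cacng6 differed by 0.16, and without Ctrl-MI replicate 2 Cacng3 differed by 0.13. The 8 genes had differences between -0.02 and 0.31.

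T-type calcium channels open at more negative voltages and contribute to pacemaking. Cacna1h was 7.78 and 7.72 in TTg-MI, against 7.60 and 7.51 in Ctrl-MI, and Cacna1i, mainly a neuronal T-type pore, was 7.31 and 7.40 in TTg-MI, against 7.10 and 7.15 in Ctrl-MI. Both genes were higher on both TTg-MI arrays, by 0.20 (SE 0.15) and 0.23 (SE 0.15). Cacna1g, the T-type pore of the adult node, was 6.52 and 6.60 in TTg-MI, against 6.74 and 6.25 in Ctrl-MI, and its difference of 0.06 (SE 0.21) turned to -0.19 when Ctrl-MI replicate 2 was left out and stood at 0.30 when its partner was. Cacna1d, an L-type pore of the sinoatrial node and atria, was 5.57 and 5.39 in TTg-MI, against 5.60 and 5.39 in Ctrl-MI, near the dim limit in both groups. The neuronal Cacna1a was 6.74 and 6.63 in TTg-MI, against 6.97 and 6.81 in Ctrl-MI, a difference of -0.21 (SE 0.16) that was -0.13 without Ctrl-MI replicate 1. Adjusted p in limma for these 5 genes ran from 0.758 to 0.996.

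The pacemaker genes Hcn4 and Hcn2 were higher in both TTg-MI hearts. Hcn4, the main pacemaker isoform of the sinoatrial node, was 7.37 and 7.35 in TTg-MI, against 6.75 and 6.90 in Ctrl-MI. The TTg-MI hearts lay within 0.02 log2 units of each other and above both Ctrl-MI hearts, a difference of 0.54 (SE 0.15, 95% interval 0.16 to 0.92, 1.45-fold, adjusted p = 0.546 in limma). With single arrays left out it ran from 0.47 to 0.61, with an unadjusted p under 0.05 in 1 of the 4 fits. Hcn2, an isoform also present in working muscle, was 6.83 and 7.00 in TTg-MI, against 6.30 and 6.66 in Ctrl-MI. Its difference was 0.44 (SE 0.19, adjusted p = 0.619) and 0.26 without Ctrl-MI replicate 1. Hcn3 was dim on all 4 arrays.

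Hcn4 was set beside markers of the tissues that hold it. Of 7 conduction system markers 4 had a higher TTg-MI mean, with a median of 0.00 and sums of 9.56 to 9.64 in TTg-MI and 9.50 to 9.73 in Ctrl-MI. Cntn2, a marker of the ventricular conduction system, was 6.55 and 6.64 in TTg-MI, against 6.02 and 6.27 in Ctrl-MI. Shox2 and Vsnl1 were dim on all 4 arrays. The other conduction markers included Tbx18, Tbx3 and Smoc2, which differed by -0.25, -0.07 and -0.04.

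Markers of atrial muscle differed far more between hearts than the channel genes did. Of 6 markers, 4 had a higher TTg-MI mean, and their median difference was 3.19. Bmp10 was 12.38 and 11.82 in TTg-MI, against 5.31 and 5.39 in Ctrl-MI, where it was dim on both arrays (adjusted p = 0.00489 in limma). The atrial light chain gene Myl7 was 12.45 and 11.47 in TTg-MI, against 10.44 and 5.61 in Ctrl-MI. Both genes were higher in both TTg-MI hearts, and Ctrl-MI replicate 2 had much the lower Ctrl-MI value of Myl7. The groups overlapped for the other 4 markers. Myl4 was 16.34 and 14.61 in TTg-MI, against 15.99 and 7.70 in Ctrl-MI. Sln was 14.42 and 13.06 in TTg-MI, against 14.07 and 7.90 in Ctrl-MI. For both, Ctrl-MI replicate 2 was again the lowest heart. Dkk3 and Nppa, the atrial natriuretic peptide gene, had a lower TTg-MI mean, with differences of -0.70 and -0.53. Without Ctrl-MI replicate 2 the median over the 6 markers was -0.43, with 2 of 6 higher, and without Ctrl-MI replicate 1 it was 6.09. The summed level of the 6 was 18.97 to 20.07 in TTg-MI and 19.90 to 20.04 in Ctrl-MI. It was set largely by Nppa, which lay within 1 log2 unit of the array's top on 3 of the 4 arrays. None of the 6 was dim on all 4. The part of atrial or conduction tissue in the Hcn4 difference was not tested.

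Of the Trpc, Trpm and Trpv genes, Trpm4 had the largest difference. It encodes a channel opened by intracellular calcium that passes monovalent cations and is active in atrial muscle and the conduction system. Its values were 7.71 and 7.38 in TTg-MI, against 6.67 and 6.86 in Ctrl-MI. Both TTg-MI hearts were higher, with a difference of 0.78 (SE 0.19, 95% interval 0.32 to 1.25, 1.72-fold, adjusted p = 0.546 in limma). It ran from 0.62 to 0.95 with single arrays left out, and the unadjusted p was under 0.05 in all 4 fits, as for no other gene of the 59 except Scn7a. The values of atrial and conduction markers given beside Hcn4 apply here too, and their part was not tested.

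Trpm7, a magnesium-permeable channel fused to a kinase, was 10.86 and 11.51 in TTg-MI, against 10.92 and 11.13 in Ctrl-MI. The TTg-MI hearts enclosed both Ctrl-MI hearts, and the difference of 0.17 (SE 0.25) turned to -0.16 when TTg-MI replicate 2 was left out and stood at 0.49 when its partner was. Trpv2, a channel of muscle and macrophages, was 6.16 and 6.27 in TTg-MI, against 6.71 and 6.48 in Ctrl-MI. Both TTg-MI hearts were lower, by -0.38 (SE 0.17, adjusted p = 0.619 in limma), alongside the 5 macrophage markers given above, and their part was not tested. Without Ctrl-MI replicate 1 the Trpv2 difference was -0.27.

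The TRPC channels open on receptor signalling and have been studied in cardiac hypertrophy. The 5 TRPC genes had a median size of difference of 0.04, against 0.13 over the 59 genes. Of these 5, Trpc4, Trpc5 and Trpc7 were dim on all 4 arrays, which limits what this median can show. Trpc1 was 7.55 and 7.55 in TTg-MI, against 7.47 and 7.59 in Ctrl-MI, a difference of 0.02 (SE 0.15, 95% interval -0.36 to 0.40). Trpc6, opened by diacylglycerol, was 5.31 and 5.56 in TTg-MI, against 5.52 and 5.40 in Ctrl-MI, dim on 1 array of each group. The 5 TRPC genes had differences between -0.04 and 0.19, and the 6 TRPV genes between -0.38 and 0.18. Trpc4ap and Trpc5os, which are not channels, differed by -0.15 (SE 0.18) and -0.17 (SE 0.21).

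**Figure D5:**
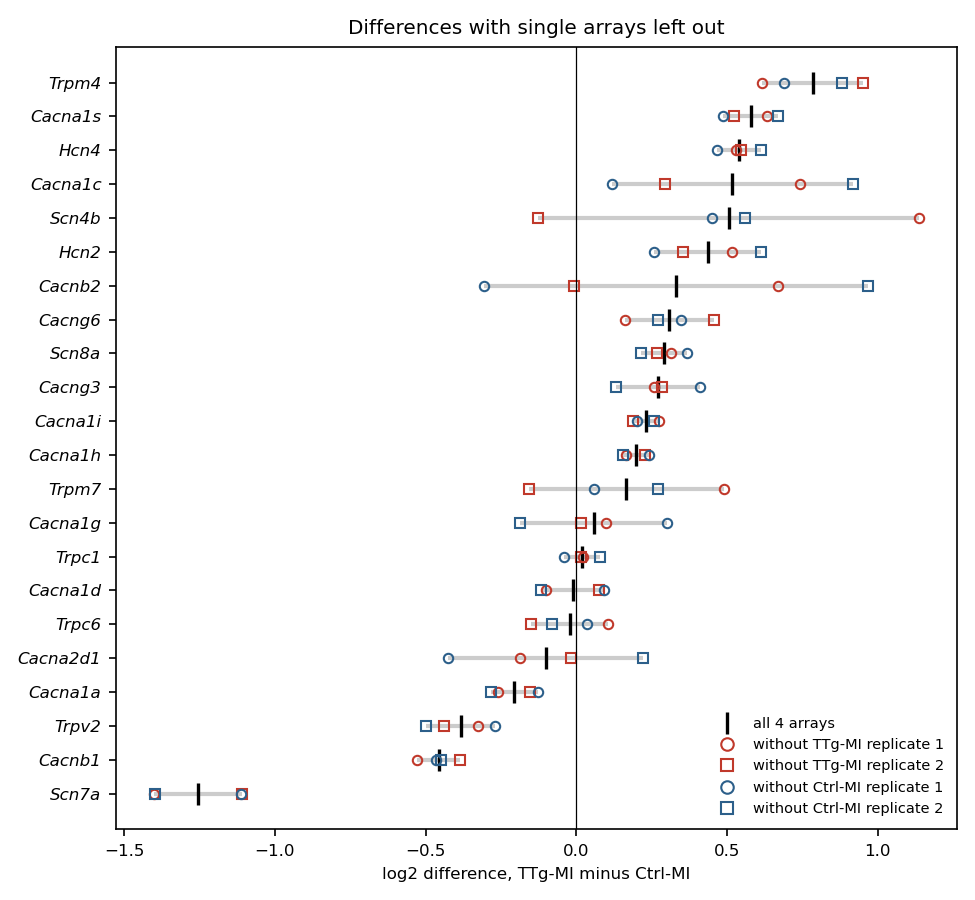
Log2 difference (TTg-MI minus Ctrl-MI, horizontal axis) of the 22 genes described in full, with all 4 arrays (black tick) and with each array left out (open symbols). Scn7a stays between -1.40 and -1.11 and Trpm4 between 0.62 and 0.95, whereas Cacnb2 runs from -0.31 to 0.97 and Scn4b from -0.13 to 1.14.

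Gaps between replicate hearts were of like size to many of the group differences. The median gap between replicates over the 59 genes was 0.16 in TTg-MI and 0.16 in Ctrl-MI, against 0.18 and 0.21 over all probes. A gap over 0.5 was seen for 5 genes in TTg-MI and 7 in Ctrl-MI, and 6 genes had a group difference over 0.5 in size. In Ctrl-MI the widest gaps were those of Cacnb2 (1.28), Trpm3 (1.04), an ion channel of sensory neurons, and Cacna1c (0.80). In TTg-MI they were those of Scn4b (1.26) and Trpm1 (0.82), a channel of retinal bipolar cells and melanocytes.

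Proteins that bind or control these channels were read from 5 lists by function, of which 42 of 47 genes had a named probe. None passed limma over all probes, and 1 of the 42 had an unadjusted p under 0.05 (8.25% of all probes), Gem, a small GTPase that inhibits L-type channels. Gem was 6.05 and 6.33 in TTg-MI, against 6.80 and 6.73 in Ctrl-MI, lower in both TTg-MI hearts by -0.58 (SE 0.17, adjusted p = 0.546). The count of 1 rose when either Ctrl-MI heart was left out. Over all probes such a count fell without Ctrl-MI replicate 1 and rose without Ctrl-MI replicate 2. The related inhibitor Rrad overlapped widely, at 14.65 and 12.64 in TTg-MI, against 12.74 and 14.25 in Ctrl-MI. Over the 42 genes the median difference was 0.08, and 8 lay above and 5 below without overlap, against 19.4% and 18.7% of all probes.

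Sodium channel partners had a higher TTg-MI mean for 10 of 11 genes (52.3% of all probes), with a median of 0.17. Without Ctrl-MI replicate 1 it was 8 of 11, and Camk2d and Ank3 were then among the lower ones. Fgf14, which encodes a homologous factor that binds the sodium channel tail, was 6.94 and 6.74 in TTg-MI, against 6.54 and 6.24 in Ctrl-MI. Ank2, encoding the membrane anchor ankyrin-B, was 10.27 and 10.42 in TTg-MI, against 9.32 and 10.08 in Ctrl-MI, and Fgf13 overlapped between groups. Their differences were 0.45 (SE 0.18), 0.64 (SE 0.27) and 0.62 (SE 0.31). As for Cacna1c, Ctrl-MI replicate 1 was the lowest heart for Ank2 and Fgf13, and without it these differed by 0.26 and 0.33. Without Ctrl-MI replicate 2 Ank2 differed by 1.02, and the Fgf13 difference became 0.97 when TTg-MI replicate 1 was left out and 0.27 when its partner was.

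Calcium channel partners had a higher TTg-MI mean in 7 of 9 genes (52.3% of all probes), and in 6 or 7 with single arrays left out. Without overlap of the groups, 2 were higher (19.4% of all probes) and 2 lower (18.7% of all probes). Calm2, a calmodulin gene, was lower in both TTg-MI hearts by -0.41 (SE 0.18), and by -0.25 without TTg-MI replicate 2. Stac3, the adaptor of the skeletal Cacna1s channel, was higher in both by 0.55 (SE 0.26), but by 0.22 when Ctrl-MI replicate 2 was left out and 0.89 when its partner was. Of 5 regulators of HCN channels, Lrmp, whose product modulates Hcn4 gating, differed by -0.28 (SE 0.15) and Mrvi1 by 0.03 (SE 0.17). Cav3, the caveolin gene of muscle, differed by 0.28 (SE 0.26), by -0.04 when Ctrl-MI replicate 1 was left out and by 0.60 when its partner was. Leaving out TTg-MI replicate 1 gave 0.15.

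Of 11 store-operated and other TRP-related genes, Trpa1 differed by 0.29 (SE 0.15) and was dim on all 4 arrays. Pkd2l2, a gene of the polycystin branch of the TRP family, was 9.06 and 9.75 in TTg-MI, against 7.76 and 9.44 in Ctrl-MI. The groups overlapped, and the difference of 0.81 (SE 0.56) became -0.03 when Ctrl-MI replicate 1 was left out and 1.64 when its partner was. Leaving out TTg-MI replicate 2 gave 0.46. Mcoln1 differed by 0.23 (SE 0.19) and ran from 0.07 to 0.39 with single arrays left out. Of 6 sodium leak and epithelial sodium channel genes, the leak channel Nalcn differed by -0.27 (SE 0.15) and Scnn1g by -0.09 (SE 0.16). Unc80, a partner of the leak channel, differed by 0.18 (SE 0.18), by 0.02 when Ctrl-MI replicate 1 was left out and by 0.35 when its partner was.

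Markers of the remaining cell types were read on the same arrays. Both directions occurred among the 7 neuronal markers (2 with a higher mean, sums of 9.25 to 9.31 in TTg-MI and 9.23 to 9.34 in Ctrl-MI). Of 6 smooth muscle markers 4 had a higher TTg-MI mean, with a median difference of 0.06. Their sums of 14.83 to 14.92 in TTg-MI and 13.56 to 14.12 in Ctrl-MI were mostly Acta2, which was 14.67 and 14.73 in TTg-MI, against 13.10 and 13.79 in Ctrl-MI. Tagln differed by -0.79, Myh11 was lower on both TTg-MI arrays by -0.14, and the other 3 differed by 0.05 to 0.11. Of 6 endothelial markers 2 had a higher TTg-MI mean, and the median difference was -0.13. Their sums were 15.15 to 15.62 in TTg-MI and 15.14 to 15.18 in Ctrl-MI, with Kdr as the largest part. Kdr and Tie1 were higher on both TTg-MI arrays by 0.64 and 0.69, and Pecam1 was lower on both by -0.56. The groups overlapped for the other 3.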

How the data were processed

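Gene expression in 4 whole hearts was read on Clariom S Mouse arrays. The deposited table holds log2 expression values, the log base being inferred here from a range of about 4 to 20. Per the submitters' processing notes the authors used Affymetrix Expression Console 1.4. The normalization method, summarization and genome build are not given in the sources used here. Values were used as deposited, and probe symbols came from the platform annotation (19572 of 22206 probes named). No read depth applies, and the 4 arrays limit the precision.

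TTg-MI was compared with Ctrl-MI in limma 3.58.1 (R 4.3.3, lmFit and eBayes, two-sided), fitted on all 22206 probes, with 2 residual degrees of freedom and 3.56 from the shared prior. P-values were adjusted by Benjamini-Hochberg at a threshold of 0.05. Intervals (95%) use the moderated variance. Exact permutation of 2 against 2 arrays cannot give a p below 0.333. The labels name no batch. The fit was tested on simulated data.

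Values in full are given for 15 of 19 listed heart channel genes (the rest are not reported here) and for the 14 genes with the smallest p that were not dim in at least 1 group, 22 in all; up to 3 genes per regulator list were named by p. Trpm1, Trpm3, Rrad, Cntn2, Scn1a, Scn2a, Scn3a, Scn2b, Scn3b, Cacng1, Camk2d, Ank3 and the single marker genes with values are given outside this rule, chosen after their values were seen. The genes, lists and rules were chosen with earlier results of these data known. Summed levels are the log2 of summed linear values. Alternatives were leaving out each array, a replicate block, quantile normalization, median centring, a trended robust prior and the mean of a symbol's probes. A further one, called the filter on dim probes, kept probes whose mean over the arrays was at or above the median of such means. That cut is higher than the dim limit used for single values, so it also removed probes that were not dim.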

Additional observations from a re-analysis of the deposited data

How the results depend on the processing

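The number of channel genes past the adjusted threshold in limma was 0 with all arrays and under every alternative run, and the regulators likewise gave 0. Over all probes the number called was 1, and it was 4 with an intensity trend and robust prior, 7 with the replicate block, and from 1 to 332 as single arrays were left out (2 for Ctrl-MI replicate 1, 332 for Ctrl-MI replicate 2). Probes at an unadjusted p under 0.05 numbered 1833, against 1075 with the filter on dim probes, which tests fewer probes, and 862 to 3275 with single arrays left out (the lowest when TTg-MI replicate 2 was left out, the highest for Ctrl-MI replicate 2). Channel genes at that level numbered 5, against 7 with the replicate block and 2 to 8 with single arrays left out (the same arrays). Regulators at that level numbered 1, against 3 with quantile normalization, 2 with median centring, 0 with the filter on dim probes, 2 with the trend and robust prior, 6 with the replicate block and 1 to 9 with single arrays left out (5 for Ctrl-MI replicate 1, 9 for Ctrl-MI replicate 2). The median difference of the channel genes was 0.06, and 0.21 with the filter on dim probes, which keeps fewer genes. The cause of the other shifts was not tested.

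Of 216 differences of the 22 genes under alternatives, 204 kept their sign and their side of the threshold. A sign could not change under the replicate block, the filter on dim probes, the trended robust prior or the mean of a symbol's probes. These leave each difference as it was. The 12 that changed sign belonged to 8 genes. Cacna1d was 0.0014 with median centring. The other 11 changes came from leaving out single arrays, over which Cacna1d ran from -0.1166 to 0.0926, Cacna1g from -0.1854 to 0.302, Cacna2d1 from -0.4257 to 0.2223, Cacnb2 from -0.3071 to 0.9681, Scn4b from -0.1262 to 1.1364, Trpc1 from -0.0406 to 0.0795, Trpc6 from -0.1498 to 0.1057 and Trpm7 from -0.1575 to 0.4897. None of these 8 genes passed the threshold in any of these fits. The lowest adjusted p of any of the 22 under an alternative was 0.0536, for Scn7a without Ctrl-MI replicate 2. Deviations of same-numbered arrays from their group means correlated at 0.163 over probes. The labels give no shared litter or day, so whether same-numbered hearts were paired is not known. The main fit did not pair them. No gene had several probes, so averaging them changed no member's value. Fits without 1 array assume that the lone heart varies like the other group. Precision is limited by 2 hearts a group and by the 13 genes dim on every array.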
